A study of Arabidopsis thaliana with 12 samples.

Results

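The genes described here encode proteins that loosen, cut, build or modify the plant cell wall. They were chosen by name, as genes measured by a probe set with 1 gene name whose symbol begins with EXPA, EXPB, EXLA, EXLB, XTH, GH9, CESA, CSL, PME, GAUT, FLA or AGP followed by a letter or a number. Of 13356 genes measured, 53 met this rule, each through 1 probe set. By family they were 10 EXPA, 4 EXPB, 3 EXLA, 1 EXLB, 9 XTH, 15 GH9, 7 CSL, 3 PME and 1 GAUT genes. No CESA, FLA or AGP gene was measured under such a name, and the gene table of RefSeq lists 196 genes under the 12 prefixes, so most members of these families were not analysed here. The name rule also took in PMEAMT, which is no wall gene but a methyltransferase of the phosphoethanolamine pathway that leads to phosphocholine. It leaves 52 wall genes when set aside.

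RNA came from whole Arabidopsis thaliana seedlings, 14 days old, in the Columbia (Col) background and was hybridised to 12 Affymetrix ATH1 arrays. The 4 genotypes, with 3 biological replicates each, were wild-type Col, the single mutants brm-1 and clf-29, and the double mutant brm-1 clf-29. The allele brm-1 is a null T-DNA insertion in BRM, the ATPase of a SWI/SNF chromatin remodelling complex, and clf-29 is a T-DNA insertion in CLF, which methylates lysine 27 of histone H3. Each mutation was represented by a single allele, and the probe sets of BRM and CLF carried no gene name, so these arrays gave no check of the genotypes at the mutated genes.

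A growing plant cell is held by a wall of cellulose microfibrils embedded in xyloglucan, mannan and other hemicelluloses and in pectin. Expansins loosen the contacts between these polymers without cutting them, XTH enzymes cut and rejoin xyloglucan chains, and GH9 enzymes cut beta-1,4-glucans. CSL proteins polymerise hemicellulose backbones, GAUT proteins belong to the family that adds galacturonic acid to pectin, and pectin methylesterases (PME) strip methyl groups from pectin in the wall.

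Signals are on the log2 scale throughout, and a difference of 1 is a doubling. A gene was called where the adjusted p of limma's moderated test over all 13356 genes was under 0.05. The word background is used for the 95th percentile of 27 probe sets for bacterial control transcripts, at 4.71. Of the 53 genes, 40 had a mean above it in all 4 genotypes, 8 lay under it in all 4 and 5 crossed it. Among the genotype means of all genes 26.9% were under it, and among those of the 53 genes 20.3%. In RNA of whole seedlings, fewer cells of a type and less RNA per cell cannot be told apart.

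Genotypes were compared in 5 pairs, and clf-29 against brm-1 was not tested. Between 0 and 6 of the 53 genes were called in each pair. The share called was 3.77% in brm-1 and in clf-29 against Col. In the double mutant it was 11.3% against Col and 9.43% against clf-29. In brm-1 against Col, 2 of the 53 genes were called, GH9B13 and PMEAMT, both lower, where 1.86% of all genes were called (0.696% higher and 1.17% lower). In clf-29 against Col, CSLC04 was lower and EXPB2 higher, 2 of 53 beside 0.943% of all genes (0.547% higher and 0.397% lower). The double mutant against Col gave 6 calls, beside 4.99% of all genes (2.4% higher and 2.59% lower), with EXPA20 and PME61 higher and CSLC04, EXPA15, EXPA9 and GH9B13 lower. Against clf-29, the double mutant gave 5 calls, beside 1.47% of all genes (0.487% higher and 0.981% lower), with EXPA20 higher and EXPA15, GH9B13, GH9B8 and PMEAMT lower. Against brm-1 the double mutant gave 0 calls with limma, beside 0.217% of all genes, while 15 of the 53 genes had an unadjusted p under 0.05, beside 9.77% of all genes. The F test for any difference among the 4 genotypes called 10 of 53 (18.9%), beside 4.66% of all genes. The test of whether the effects of the mutations add up on the log2 scale called 0 of the 53 genes and 0 of all genes, and 2 of the 53, EXLA2 and GH9B8, had an unadjusted p under 0.05, beside 5.65% of all genes. Without Col replicate 1 or 2 the double mutant gave 2 calls against Col and the F test 6, and without double mutant replicate 1 or 2 there were 3 calls against Col. Against clf-29, 3 calls were left without clf-29 replicate 2 (F test 6) or double mutant replicate 1. In clf-29 against Col, 1 call was left without any array but brm-1 replicate 3, whose removal gave 4 calls there and 1 in the double mutant against brm-1. Whether the shares among the 53 genes differed from those of all genes was not tested.

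The wall genes did not move as a block. Over the 52 wall genes the median log2 difference was 0.09 in brm-1 against Col (all genes: -0.04), 0.07 in clf-29 against Col (all genes: -0.00) and 0.06 in the double mutant against Col (all genes: -0.02). In the same order, 28, 31 and 27 of the 52 differences were above 0. Arrays of the compared genotypes did not overlap for 13, 13 and 18 of the 53 genes, beside 20.6%, 18.0% and 23.8% of all genes. For the double mutant against clf-29 and against brm-1 these counts were 14 and 12, beside 16.0% and 13.6%.

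**Figure D1:**
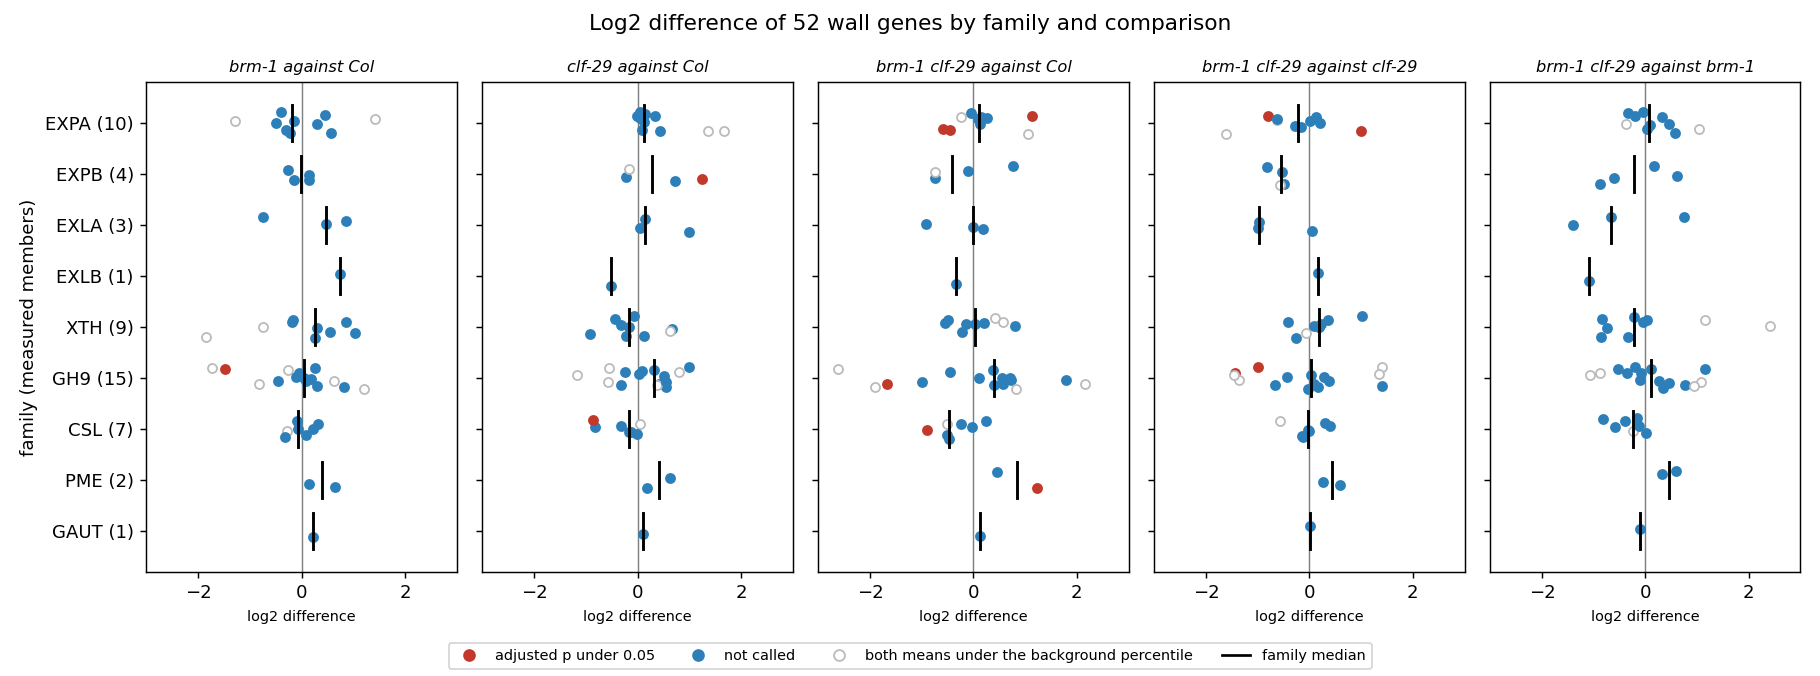
Log2 difference (x axis) of each of the 52 wall genes by family (y axis, number measured in brackets) in 5 comparisons, with called genes in red, genes whose compared means both lay under background as open circles, and family medians as black bars. Differences lay on both sides of 0 in the larger families. Called genes numbered 1 of 52 in brm-1 against Col and 6 of 52 in the double mutant against Col, beside 1.86% and 4.99% of all genes.

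Replicate number 3 stood apart. Over the genes with a mean signal at or above the median, the first principal component held 30.9% of the variance. On it, the replicate 3 arrays of all 4 genotypes lay between 12.2 and 22.3 and the other 8 arrays between -21.4 and 5.76. Over the same genes, same-numbered arrays deviated together from their group means (correlations 0.196 to 0.708). Deviations within a genotype cancel out, so a shared shift of replicate 3 alone also makes those of replicates 1 and 2 agree. Pairing by number within replicates 1 and 2 is therefore not shown. Values from a fit with the replicate number as a block are given below where they change a call. With that block the calls among the 53 genes numbered 4 in brm-1 against Col and 5 in clf-29 against Col, beside 4.78% and 3.48% of all genes. In the double mutant they numbered 9 against Col, 8 against clf-29 and 4 against brm-1, beside 10.4%, 4.07% and 1.65% of all genes. The blocked F test called 16, beside 12.1% of all genes, and the genes it added were CSLA03, EXPA9, EXPB3, PME61, XTH18 and XTH19 (adjusted p between 0.0086 and 0.0316).

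Alpha-expansins (EXPA) are the classical wall-loosening proteins of acid growth. Of the 10 measured, 3 were called in the double mutant against Col (1 higher, 2 lower), 2 in the double mutant against clf-29, and 0 with limma in the other pairs, where 4 (brm-1 against Col), 2 (clf-29 against Col) and 2 (double mutant against brm-1) had an unadjusted p under 0.05, beside 13.1%, 12.0% and 9.77% of all genes. In clf-29 against Col, 9 of the 10 differences were above 0, beside 6595 of all 13356 genes, with a median of 0.13 and no call. The 9 included EXPA21 and EXPA24, which lay under background in both genotypes. In brm-1 against Col, 6 of the 10 were below 0, beside 7235 of all 13356 genes, with a median of -0.19 and no call.

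EXPA20 (AT4G38210) was highest where both mutations met. Its signals were 6.41, 6.41 and 7.05 in Col, 7.07, 7.08 and 7.41 in brm-1, 7.02, 6.58 and 6.68 in clf-29, and 7.96, 7.66 and 7.63 in brm-1 clf-29. Every double mutant array lay above every other array, whereas Col and clf-29 overlapped. The double mutant exceeded Col by 1.13 ± 0.22 (SE), a fold of 2.18 (adjusted p = 0.0124), and clf-29 by 0.99 ± 0.22 (adjusted p = 0.0497). The first call was lost without Col replicate 1, Col replicate 2 or double mutant replicate 1 (adjusted p up to 0.0608). The second was kept only without Col replicate 3 and was lost without any of the other 11 arrays (adjusted p up to 0.195).

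EXPA15 (AT2G03090) was low in both genotypes with brm-1. Signals were 9.41, 9.25 and 9.23 in Col, 8.84, 8.78 and 8.76 in brm-1, 9.73, 9.69 and 9.47 in clf-29, and 8.59, 8.96 and 8.95 in brm-1 clf-29. The arrays of clf-29 all lay above those of Col, and those of both brm-1 genotypes all lay below, overlapping each other. Adding brm-1 to clf-29 lowered the signal by 0.80 ± 0.12, a fold of 1.74 (adjusted p = 0.0066), a call kept whichever array was left out but lost with the compared genotypes fitted alone (adjusted p = 0.0754). In the double mutant against Col it fell by 0.46 ± 0.12 (adjusted p = 0.0447), which was kept only without replicate 3 of brm-1, clf-29 or the double mutant, with an adjusted p up to 0.161 without one of the other 9 arrays. The brm-1 single mutant differed from Col by -0.50 ± 0.12, which just missed the threshold (adjusted p = 0.0572) and passed it with the replicate block (adjusted p = 0.0303).

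EXPA9 (AT5G02260) had signals of 8.64, 8.76 and 8.95 in Col, 8.31, 8.44 and 8.42 in brm-1, 8.91, 8.88 and 8.69 in clf-29, and 8.47, 8.24 and 7.86 in brm-1 clf-29. As for EXPA15, the arrays with brm-1 all lay below those with an intact BRM. The double mutant was lower than Col by a difference of -0.59 ± 0.15 (adjusted p = 0.0414). That call was kept only without replicate 3 of brm-1 or of clf-29 or without double mutant replicate 1, and the adjusted p reached 0.151 without one of the others. With replicates 1 and 2 alone the difference was -0.34 (adjusted p = 0.12). Against clf-29 the difference was -0.64 ± 0.15, not called (adjusted p = 0.0648) but called with the replicate block (adjusted p = 0.0322).

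EXPA4 (AT2G39700) was called by the F test (adjusted p = 0.0048), also whichever array was left out, and in none of the 5 pairs tested. Its signals were 10.65, 10.61 and 10.81 in Col, 10.29, 10.49 and 10.40 in brm-1, 11.04, 11.15 and 11.18 in clf-29, and 10.98, 10.76 and 10.78 in brm-1 clf-29. Brm-1 arrays were the lowest and clf-29 arrays the highest, with Col and the double mutant between them and overlapping. The differences from Col were 0.43 ± 0.10 in clf-29 (adjusted p = 0.0644; 0.0277 with the replicate block) and -0.30 ± 0.10 in brm-1 (adjusted p = 0.185). Between the double mutant and brm-1 the difference was 0.45 ± 0.10 (adjusted p = 0.102; 0.0403 with the block).

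The other 6 EXPA genes were not called in any pair tested or in the F test of the main fit. EXPA8 was called with replicates 1 and 2 alone, as given below. EXPA7 and EXPA18 are expansins of root hairs. EXPA7 means ran from 7.73 ± 0.20 (SD, n = 3) in brm-1 to 8.00 ± 0.53 in clf-29, and EXPA18 means from 8.70 ± 0.42 in clf-29 to 9.16 ± 0.61 in brm-1, within the spread between replicates. EXPA21 and EXPA24, with 4 genes between them in the genome, lay under background in all 4 genotypes.

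Beta-expansins (EXPB) form the second expansin family, and expansin-like proteins (EXLA, EXLB) share the domains of expansins but are not known to loosen walls. EXPB2 (AT1G65680) was the beta-expansin called in the main fit. Its signals were 5.17, 5.35 and 5.15 in Col, 5.40, 5.59 and 5.11 in brm-1, 6.44, 6.47 and 6.51 in clf-29, and 5.90, 6.02 and 6.04 in brm-1 clf-29. Both genotypes with clf-29 lay above both genotypes with an intact CLF, and the 3 arrays of clf-29 lay within 0.07 of each other. The rise in clf-29 against Col was 1.25 ± 0.26, a fold of 2.38 (adjusted p = 0.0481), and the call was kept only without brm-1 replicate 3 (adjusted p up to 0.176 without one of the other 11 arrays). The double mutant differed from Col by 0.76 ± 0.26 (adjusted p = 0.129).

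EXPB3 (AT4G28250) had signals of 9.91, 9.83 and 10.09 in Col, 10.04, 9.76 and 9.24 in brm-1, 10.69, 10.78 and 10.53 in clf-29, and 9.89, 10.23 and 9.42 in brm-1 clf-29. The clf-29 arrays lay above all others, and the other genotypes overlapped. Neither the difference of 0.72 ± 0.21 in clf-29 against Col (adjusted p = 0.166) nor that of -0.82 ± 0.21 in the double mutant against clf-29 (adjusted p = 0.0901) was called, whereas both were with the replicate block (adjusted p = 0.0403 and 0.0196). All 4 EXPB differences in the double mutant against clf-29 were below 0, from -0.82 to -0.49. Of these EXPB3 was called with the block and 0 in the main fit. EXPB5, at -0.57 ± 0.69, lay under background in both of these genotypes. EXPB1, lower in the double mutant than in Col by a difference of -0.75 ± 0.24, was called with the block (adjusted p = 0.0244) and not in the main fit (adjusted p = 0.1004).

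EXLA2 (AT4G38400) was lowest in the double mutant. Signals were 7.17, 6.88 and 6.60 in Col, 7.56, 6.85 and 7.66 in brm-1, 7.12, 6.66 and 7.0 in clf-29, and 6.33, 5.87 and 5.68 in brm-1 clf-29. The 3 double mutant arrays lay below the other 9, which overlapped. The F test called it (adjusted p = 0.0436), but that call was lost when any array but brm-1 replicate 2 was left out. It was also lost without the variance trend, with array weights and with replicates 1 and 2 alone. No pair tested was called, with differences of -0.92 ± 0.27 against Col (adjusted p = 0.0767), -0.97 ± 0.27 against clf-29 (adjusted p = 0.131) and -1.40 ± 0.27 against brm-1 (adjusted p = 0.0661). All 3 were called with the replicate block (adjusted p = 0.0271, 0.0425 and 0.0136), and none with replicates 1 and 2 alone.

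EXLB1 (AT4G17030) was highest in brm-1. It read 7.94, 7.97 and 8.44 in Col, 8.80, 8.72 and 9.09 in brm-1, 7.64, 7.92 and 7.28 in clf-29, and 7.73, 8.30 and 7.30 in brm-1 clf-29. The brm-1 arrays lay above the other 9. The F test called it (adjusted p = 0.0333), and that call was lost without Col replicate 1 or 2, any of the 3 brm-1 arrays, clf-29 replicate 1 or double mutant replicate 1, and without the variance trend. The difference of -1.09 ± 0.25 in the double mutant against brm-1 was not called (adjusted p = 0.116; 0.0425 with the replicate block). EXLA1 (AT3G45970), a neighbour of EXLA3 in the genome, was also highest in brm-1, at 10.53, 10.36 and 10.58 against 9.92, 9.46 and 9.51 in Col. Its difference of 0.86 ± 0.35 was not called (adjusted p = 0.301), and its clf-29 (9.33, 9.43 and 10.57) and double mutant arrays (10.06, 9.02 and 10.38) spread across both. EXLA3, whose mean crossed background, was not called.

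**Figure D2:**
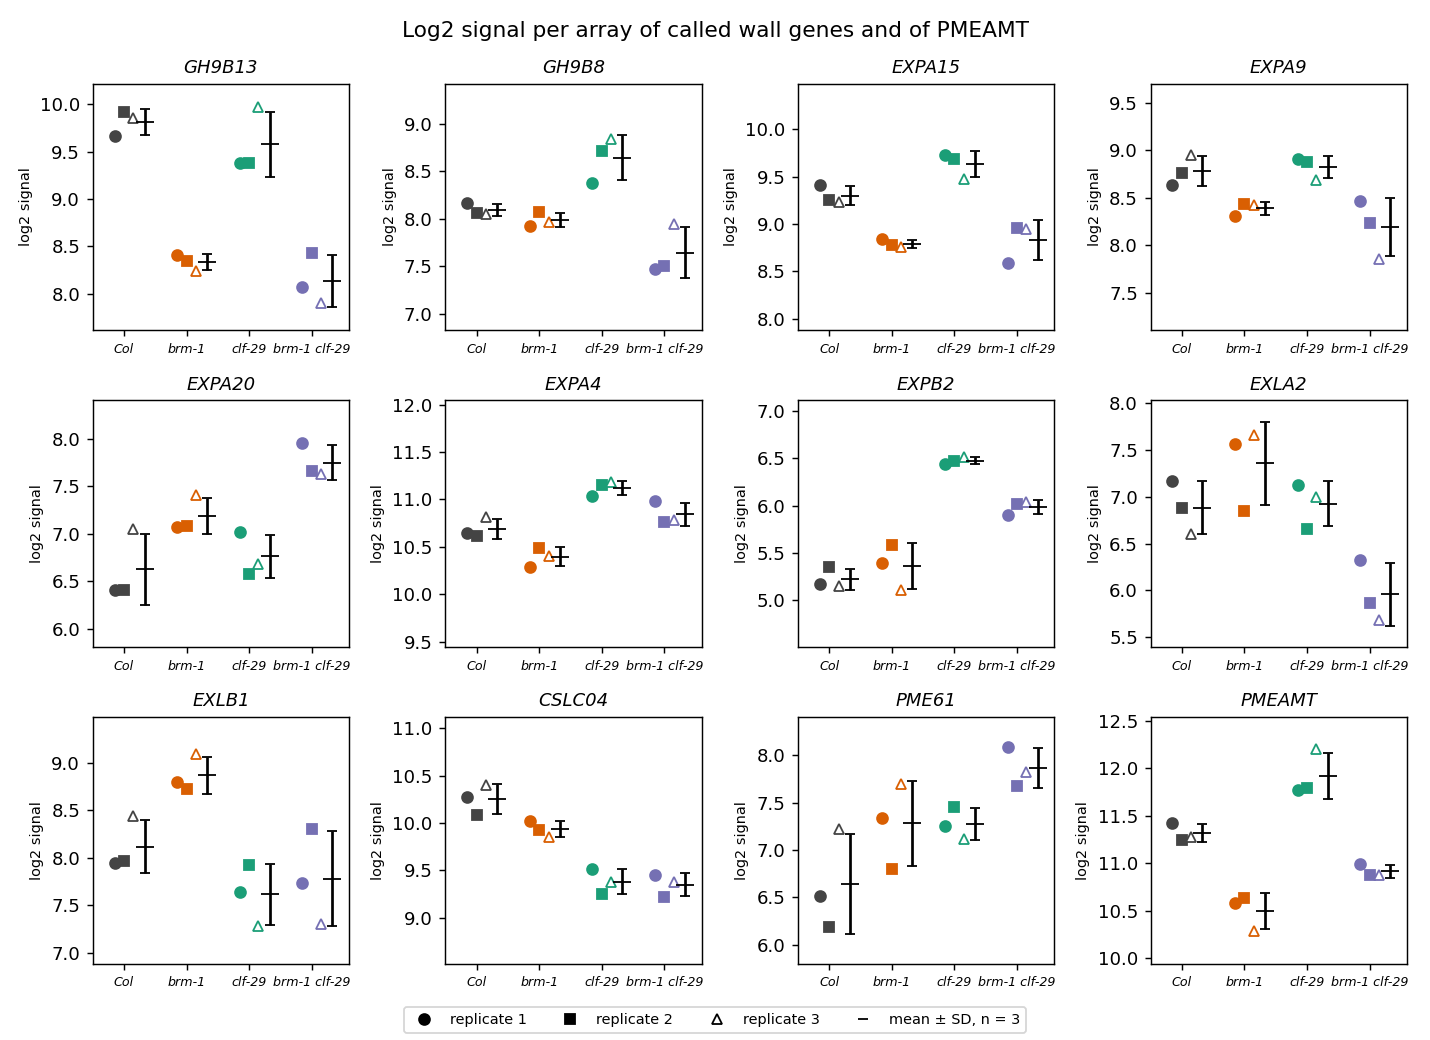
Log2 signal (y axes) on each of the 3 arrays per genotype (x axes) for the 11 wall genes called in a tested pair or in the F test of the main fit, and for PMEAMT, with replicate 3 as open triangles and black bars for mean ± SD. GH9B13 is low in both genotypes with brm-1, CSLC04 in both with clf-29, and EXPA20 and PME61 are highest in brm-1 clf-29.

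XTH enzymes remodel xyloglucan. In the main fit limma called 0 of the 9 measured in the 5 pairs tested or in the F test. There, 4 had an unadjusted limma p under 0.05 in at least 1 of these pairs, beside 34.1% of all genes. Other settings called XTH16, XTH18, XTH19, XTH32 or XTH33 in some comparisons. The XTH medians were 0.26 in brm-1 against Col, -0.16 in clf-29 against Col and 0.03 in the double mutant against Col. XTH19 (AT4G30290) had signals of 9.69, 9.46 and 10.30 in Col, 10.77, 10.43 and 11.36 in brm-1, 9.74, 9.69 and 9.38 in clf-29, and 11.12, 10.78 and 9.97 in brm-1 clf-29. Arrays of brm-1 lay above those of Col and clf-29, and in the double mutant replicates 1 and 2 did so while replicate 3 lay within the range of Col. The differences were 1.04 ± 0.30 in brm-1 against Col (adjusted p = 0.129) and 1.02 ± 0.30 in the double mutant against clf-29 (adjusted p = 0.15). Without double mutant replicate 3 the second was called (adjusted p = 0.039), as was the double mutant against Col (adjusted p = 0.0349). With array weights and with replicates 1 and 2 alone, XTH19 was called in brm-1 against Col (adjusted p down to 0.00174). XTH18, its direct neighbour in the genome, was chosen after its values were seen. Its replicate 3 was the highest array of every genotype, at 10.66 in Col, 11.34 in brm-1, 9.66 in clf-29 and 10.31 in the double mutant. Replicates 1 and 2 read 8.98 and 9.08 in Col and 10.27 and 9.72 in brm-1, so that each brm-1 array lay above the Col array of the same number. The difference of 0.87 ± 0.48 in brm-1 against Col was called with the replicate block (SE 0.23, adjusted p = 0.0484) and not in the main fit (adjusted p = 0.485). With the block the F test also called XTH18 (adjusted p = 0.0282) and XTH19 (adjusted p = 0.0263).

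GH9 endoglucanases fall into membrane-anchored class A, secreted class B and class C, which carries a carbohydrate-binding module. Of the 15 measured, 1 was called in brm-1 against Col, 1 in the double mutant against Col and 2 in the double mutant against clf-29, all class B and all lower. GH9B13 (AT4G02290) carried the largest called difference among the 53 genes. Its signals were 9.66, 9.92 and 9.85 in Col, 8.41, 8.35 and 8.24 in brm-1, 9.38, 9.38 and 9.97 in clf-29, and 8.07, 8.43 and 7.90 in brm-1 clf-29. The 6 arrays with brm-1 all lay below the 6 with an intact BRM, and within each set the genotypes overlapped. It fell by 1.48 ± 0.17 in brm-1 against Col, a fold of 2.78 (adjusted p = 0.000941). The fall was 3.20-fold in the double mutant against Col, with a log2 difference of -1.68 ± 0.17 (adjusted p = 0.000201), and 2.72-fold against clf-29 (-1.44 ± 0.17, adjusted p = 0.00115). These 3 calls were kept whichever array was left out and under every other setting tried.

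GH9B8 (AT2G32990) was highest in clf-29 and lowest in the double mutant. It read 8.17, 8.06 and 8.05 in Col, 7.92, 8.07 and 7.97 in brm-1, 8.38, 8.71 and 8.84 in clf-29, and 7.47, 7.50 and 7.95 in brm-1 clf-29. The clf-29 arrays lay above all others, Col and brm-1 overlapped, and the double mutant lay below Col. In the double mutant it fell by 1.003 ± 0.159 against clf-29, a fold of 2.01 (adjusted p = 0.0089), and the call was lost without clf-29 replicate 2 or double mutant replicate 1 (adjusted p up to 0.0516), or with the compared genotypes fitted alone (adjusted p = 0.0913). The test of whether both mutations add up gave -0.90 ± 0.22 with an unadjusted p of 0.00168 by limma and an adjusted p of 0.708.

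GH9B7 (AT1G75680) showed little spread, at 10.72, 10.71 and 10.73 in Col and 10.91, 10.93 and 10.88 in brm-1, without overlap. It ranged from 10.61 to 10.86 in clf-29 and from 10.69 to 10.96 in the double mutant, and was not called. Of the 12 GH9 genes not named here with values, 4 lay under background in all 4 genotypes, including GH9B11 and GH9B17, each of which neighbours another GH9B gene in the genome. None of the 12 was called in the main fit. The 3 class C genes all had a mean above Col in each of the 3 mutant genotypes, with class medians of 0.27 in brm-1, 0.51 in clf-29 and 0.55 in the double mutant. The Col mean of GH9C3 lay under background, and GH9C1 exceeded Col in clf-29 by only 0.08 ± 0.21. The class C gene GH9C2, at 0.55 ± 0.16 in the double mutant against Col, was called with the replicate block (adjusted p = 0.0438) and not in the main fit (adjusted p = 0.0782).

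The CSL genes measured were 4 CSLC genes, which build the xyloglucan backbone, 2 CSLA genes of mannan synthesis and CSLD2, a tip-growth gene of root hairs. Of the 7, 6 lay lower in clf-29 than in Col (median -0.16), beside 6737 of all 13356 genes. In the double mutant 6 lay lower than in Col (median -0.47), beside 6936. Both counts include CSLC6, at -0.017 and -0.023, and the second includes CSLA01, under background in all 4 genotypes. CSLA03 differed by -0.817 ± 0.275 in clf-29 against Col (adjusted p = 0.236), not called. The same 1 gene was called in clf-29 and in the double mutant against Col. That gene was CSLC04 (AT3G28180). Its signals were 10.27, 10.08 and 10.40 in Col, 10.02, 9.93 and 9.85 in brm-1, 9.51, 9.25 and 9.38 in clf-29, and 9.45, 9.22 and 9.38 in brm-1 clf-29. The 6 arrays with clf-29 all lay below the 6 with an intact CLF, and clf-29 and the double mutant overlapped throughout. It fell by 0.87 ± 0.11 in clf-29 (fold 1.83, adjusted p = 0.00269) and by 0.90 ± 0.11 in the double mutant (fold 1.87, adjusted p = 0.000692), both kept whichever array was left out and under every other setting tried. Against brm-1 the double mutant differed by -0.58 ± 0.11, not called (adjusted p = 0.0614) but called with the replicate block (adjusted p = 0.00873). The other 3 CSLC genes, CSLC12, CSLC5 and CSLC6, had genotype means that spanned at most 0.47 per gene, and no call, and CSLD2 means ran from 9.04 ± 0.32 in the double mutant to 9.28 ± 0.29 in Col.

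Pectin was covered by few genes. PME61 (AT3G59010), a pectin methylesterase, had signals of 6.51, 6.19 and 7.22 in Col, 7.34, 6.80 and 7.70 in brm-1, 7.25, 7.45 and 7.12 in clf-29, and 8.09, 7.68 and 7.82 in brm-1 clf-29. Both single mutants overlapped Col, and the double mutant lay above it. It rose by 1.22 ± 0.28 in the double mutant against Col, a fold of 2.34 (adjusted p = 0.0251). The call was lost without Col replicate 1 or 2 or without double mutant replicate 1 or 2 (adjusted p up to 0.11). PMEPCRF, the other pectin methylesterase, was not called, with means from 9.53 ± 0.24 in Col to 9.99 ± 0.21 in the double mutant. GAUT15 (AT3G58790) had means between 8.23 ± 0.15 in Col and 8.45 ± 0.32 in brm-1 and no call.

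PMEAMT (AT1G48600), the methyltransferase that shares the prefix, had signals of 11.42, 11.24 and 11.28 in Col, 10.58, 10.63 and 10.28 in brm-1, 11.77, 11.79 and 12.20 in clf-29, and 10.99, 10.88 and 10.87 in brm-1 clf-29. The 4 genotypes did not overlap. It fell by 0.82 ± 0.13 in brm-1 against Col (adjusted p = 0.00705) and by 1.01 ± 0.13 in the double mutant against clf-29 (adjusted p = 0.00225), both kept whichever array was left out. Its difference of 0.61 ± 0.13 in clf-29 against Col just missed the threshold (adjusted p = 0.0521; 0.0225 with the replicate block).

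**Figure D3:**
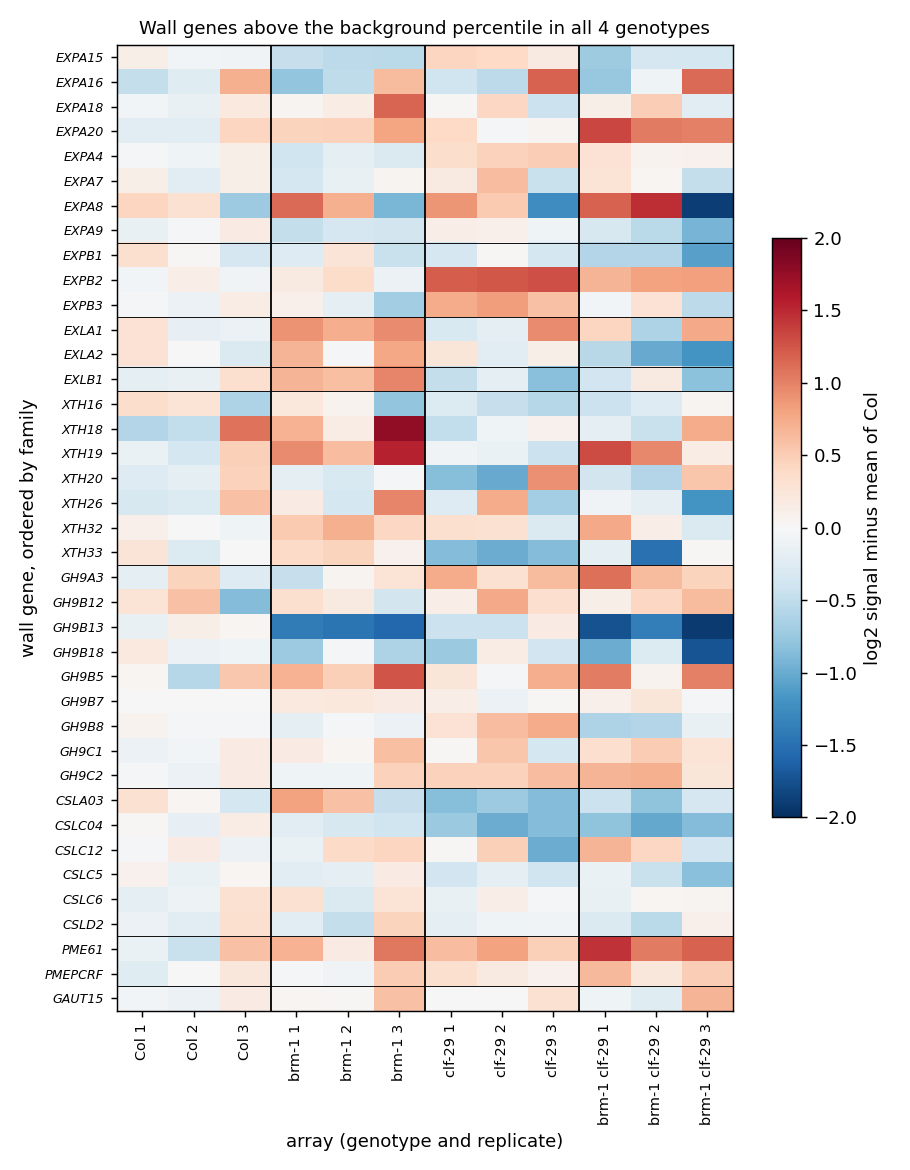
Log2 signal minus the mean of Col (colour) for the 39 wall genes above background in all 4 genotypes (rows, by family) on the 12 arrays (columns). GH9B13 is blue on all 6 arrays with brm-1, CSLC04 blue and EXPB2 red on all 6 with clf-29, and EXPA8 and EXPA16 stand apart on the replicate 3 arrays.

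Other wall genes were scarcely represented. Under the names searched, 1 of 23 cellulose synthase partners, 1 of 15 genes of xyloglucan assembly and trimming, 2 of 23 of xylan assembly, 1 of 42 of pectin assembly and cutting, 2 of 24 of lignin synthesis, 4 of 34 wall-sensing kinases and extensins, 4 of 28 growth regulators and 0 of 28 secondary wall regulators were measured. The gene called among these in a comparison against Col was ARL, an ARGOS-like growth regulator, with a mean of 10.14 ± 0.08 in Col and 11.43 ± 0.24 in the double mutant (adjusted p = 0.0152).

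Cell type markers were just as sparse. None of 14 root hair, 12 xylem or 17 maturing seed markers was measured. The root marker PYK10 (1 of 14 root markers) lay between 13.80 and 13.98 in Col, 13.50 and 13.78 in brm-1, 13.99 and 14.28 in clf-29, and 13.68 and 13.86 in the double mutant, not called in any comparison. The summed signal of LHCB4.1 and RCA (2 of 16 green leaf markers) lay between 15.22 and 15.25 in Col and higher in every mutant. It lay at 15.49 to 15.56 in brm-1, 15.47 to 15.58 in clf-29 and 15.41 to 15.64 in the double mutant. Neither gene was called in any pair tested. Of 13 floral markers 1 was measured, UFO, with a mean under background in Col, brm-1 and the double mutant and of 5.22 ± 0.42 in clf-29 (adjusted p = 0.0431 against Col). Of 13 pollen markers 4 were measured, 2 of them under background in every genotype, with summed signals between 7.76 and 8.29 over all arrays. Whether tissue makeup differed between the genotypes, and what part it had in the wall gene values, was not tested.

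Replicate 3 was the extreme array of every genotype for several wall genes, some of which also differed between genotypes as given above. It was the lowest in all 4 genotypes for 3 genes, EXPA8, EXPB1 and XTH32, and the highest for 8, CSLD2, EXLA3, EXPA16, GAUT15, GH9B11, GH9C3, XTH18 and XTH20. Of these, GH9B11 lay under background in all 4 genotypes, EXLA3 in brm-1 and GH9C3 in Col. The share of all genes with such a pattern was not counted. EXPA8, an alpha-expansin chosen after its values were seen, read 10.10, 9.97 and 8.94 in Col, 10.80, 10.38 and 8.75 in brm-1, 10.55, 10.20 and 8.42 in clf-29, and 10.85, 11.14 and 7.78 in brm-1 clf-29. Its genotype means, which include replicate 3, lay between 9.67 and 9.98. With replicates 1 and 2 alone, EXPA8 was called in the double mutant against Col and in the F test. EXPA16 went the other way, with replicate 3 at 7.23, 7.15, 7.70 and 7.64 in the same order and every other array between 5.73 and 6.43.

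**Figure D4:**
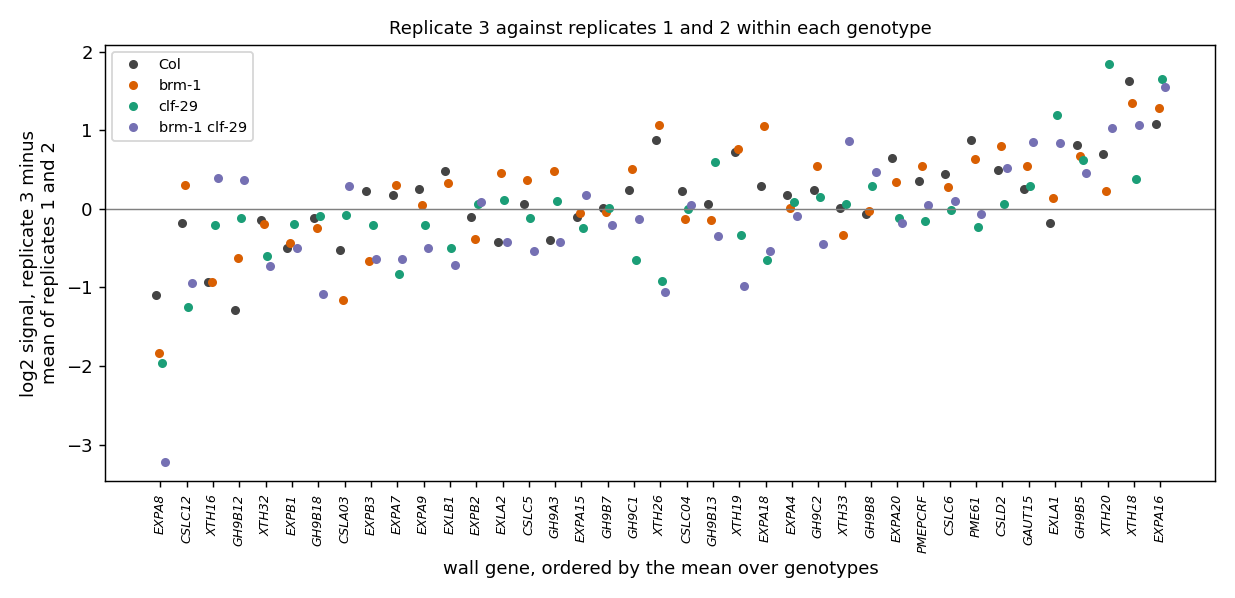
Log2 signal of replicate 3 minus the mean of replicates 1 and 2 (y axis) within each genotype (colour) for the same 39 wall genes (x axis), ordered by the mean over genotypes. EXPA8 lay below 0 and EXPA16 and XTH18 above 0 in all 4 genotypes.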

How the data were processed

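The authors deposited a log2 signal for each probe set on each array, made per the labels with MAS5 and affy (no version is given in the sources used here). Every array had been scaled to a common trimmed mean of about 499.8, array medians lay between 7.54 and 7.66, and no further normalization was applied. MAS5 subtracts mismatch signals, which makes low values noisy. The background percentile came from bacterial control probe sets on these arrays.

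Of 22810 probe sets, 13513 had 1 gene name, 503 several and 8794 none. Names were updated through RefSeq's TAIR10.1 gene table (13436 matched), and each gene was represented by its probe set with the highest mean over 12 arrays. The files name no genome build, so no coordinates are given. All 13356 genes were fitted with limma 3.58.1 in R 4.3.3, with a mean for each genotype over all 12 arrays, a variance trend and Benjamini-Hochberg adjustment per contrast. Genotypes and replicate numbers came from the sample titles. Comparisons share arrays, Col among them. Over the genes at or above the median signal, deviations of same-numbered arrays correlated at over 0.1 in all 18 of 18 pairs. A replicate block was therefore fitted as an alternative, and the main fit has none. The labels state no pairing. A shift of replicate 3 alone can give such correlations in the other replicates, so they do not settle pairing by number. A gene under background in both genotypes is given no fold. The number of arrays limits the precision.

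Alternatives were array centring, quantile normalization, an offset of 16, filters on low signals, all probe sets, probe set means, no variance trend, robust variance, array weights, the compared genotypes alone, a replicate block, a replicate 3 term, replicates 1 and 2 alone and leaving out each array. Genes named with values were the called ones and, in each family, the one with the highest mean and the one with the smallest F test p. Others are named for their role or were chosen after their values were seen. The genes and lists were chosen with earlier results of these data known.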

Additional observations from a re-analysis of the deposited data

How the results depend on the processing

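None of the 15 called gene differences changed direction under any alternative. Leaving out 1 array gave 2 to 3 calls among the 53 genes in brm-1 against Col (2 with all arrays), 1 to 4 in clf-29 against Col (2), 2 to 8 in brm-1 clf-29 against Col (6), 3 to 5 against clf-29 (5), 0 to 1 against brm-1 (0), 6 to 10 in the F test (10) and 0 to 0 in the test of additivity (0).

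The replicate block gave 4, 5, 8, 4 and 16 calls in brm-1 against Col, clf-29 against Col, the double mutant against clf-29, the double mutant against brm-1 and the F test, and it lost no call among the named differences. A replicate 3 term gave 4, 6, 4 and 17 in brm-1 against Col, clf-29 against Col, the double mutant against brm-1 and the F test. Replicates 1 and 2 alone gave 6, 8, 13, 8, 5 and 17 in brm-1, clf-29 and the double mutant against Col, the double mutant against clf-29 and brm-1, and the F test. Array weights gave 5, 5, 11 and 2 in brm-1, clf-29 and the double mutant against Col and the double mutant against brm-1. The compared genotypes alone gave 5, 3 and 2 in brm-1 against Col and the double mutant against Col and clf-29. Centring gave 4 in clf-29 against Col and 1 in the double mutant against brm-1, all probe sets 4 in clf-29 against Col, robust variance 1 in the double mutant against brm-1, and no variance trend 6 in the F test. Centring also moved the median of all genes in brm-1 against Col from -0.04 to 0.08. Of the 15 calls, fitting the compared genotypes alone lost 7 (adjusted p 0.0503 to 0.12), dropping the variance trend 4, and quantile normalization, centring and replicates 1 and 2 alone 2 each, all among EXPA15, EXPA9, EXPA20, EXPB2, GH9B8 and PME61. The cause of these losses was not tested. Of 700 family medians under alternatives, 647 stayed within 1 SD and 53 did not. Genes near background cannot be ordered at this signal.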

Other observations

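Measured under other symbols were 6 further genes that carry a name of these families as an older name, and they lay outside the rule. None was called by limma in the 5 pairs tested or in the F test, and 0 had an unadjusted p under 0.05 in any of these. EXGT-A3 (XTH27) had a mean of 11.99 ± 0.67 (SD, n = 3) in Col, 11.78 ± 0.80 in brm-1, 12.31 ± 0.38 in clf-29 and 12.20 ± 0.35 in brm-1 clf-29. ATPMEPCRB (PME41), a pectin methylesterase, had a mean of 9.12 ± 1.08 in Col, 9.33 ± 0.78 in brm-1, 8.64 ± 0.92 in clf-29 and 9.07 ± 0.59 in the double mutant. ATCSLC08, a relative of CSLC04, had a mean of 6.76 ± 0.32 in Col, 6.51 ± 0.17 in brm-1, 6.51 ± 0.58 in clf-29 and 6.90 ± 0.30 in the double mutant. ATPMEPCRD means lay between 6.20 and 6.54, and those of AT4G30380 and AT4G02300 lay under background in every genotype.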
